A study of Mus musculus with 12 samples.

Results

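The genes described here encode the initiation and elongation factors of protein synthesis, with the inhibitors and enzymes that carry the same gene symbols. They were taken by name: every probe set assigned to 1 gene whose symbol starts with Eif or Eef and a digit, leaving out the eIF2 kinases (Eif2ak), which are described with the regulators further on. That gave 54 genes of 18194 with such a probe set, and 143 probe-set entries of 35067. RNA came from mouse mammospheres, floating clusters of mammary gland cells, read on a pair of Affymetrix chips, MOE430A and MOE430B. The 3 undifferentiated samples were spheres at passage 3, kept in a 3:1 mix of DMEM and F12 with B-27, basic fibroblast growth factor, epidermal growth factor and heparin, and the submitters put their purity at 90%, with 10% myoepithelial cells. The 3 differentiated samples were spheres moved for 6 days onto dishes coated with collagen, in DMEM of high glucose content and 5% fetal bovine serum, which the submitters took to be 50% myoepithelial and 50% luminal. Both states carry the sample numbers 1, 2 and 4, and values are given in that order, to 4 significant digits. Strain, genotype and age are not given in the labels used here.

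Translation starts when the small ribosomal subunit, loaded with initiator tRNA by eIF2 and held by eIF1, eIF1A, eIF3 and eIF5, is brought to a capped mRNA by eIF4E, eIF4G and the helicase eIF4A, and scans to the start codon. eIF2B recharges eIF2 with GTP, and eIF5B joins the large subunit. In elongation eEF1A delivers aminoacyl-tRNA, eEF1B recharges eEF1A, and eEF2 moves the ribosome along by a codon. In mammals the mRNAs of several elongation factors and of ribosomal proteins start with a pyrimidine tract, through which mTORC1 controls their translation. An array measures mRNA level only, not its translation or the phosphorylation of the factors.

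The labels do not tell separate cultures or animals from repeat extractions, so the p-values measure the spread between these RNA samples, which may be technical. Medium, serum, attachment and the fluidics station of the arrays all differ between the states and cannot be told apart from the state. Differentiated samples 1 and 4 stood apart on MOE430A: their spiked hybridisation controls were 2.88 and 2.85 times the undifferentiated mean, against 1.44 times in differentiated sample 2, and their 18S rRNA control read 25340 and 17930 against 809.7 to 2456 in the other arrays. Those values move with the state in part, and their part in the results was not tested. Against the cell types in the labels, Acta2 and Tagln of contractile myoepithelium were higher in the differentiated samples, while Krt5, Krt14, Trp63 and Oxtr were below background in every sample. Collagen genes were bright in both states (Col1a1 55330 to 58140 undifferentiated, 135300 to 183200 differentiated), a family of genes that marks fibroblasts. Of 7 fibroblast markers, these collagens included, 5 were higher. Lum was lower (47600 to 50510 undifferentiated, 14840 to 19180 differentiated), and Dcn did not pass (-0.03).

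All values are MAS5 signals, a brightness on a linear scale with each array scaled to the same trimmed mean. A probe set was tested if its mean signal over the 6 arrays reached 300, and it passed if limma's p, adjusted over all probe sets of the chip, was under 0.05. The background of an array was its highest trpn control, 515.5 to 829.8 on MOE430A and 1674 to 2995 on MOE430B. A gene is shown by its brightest tested probe set on MOE430A, or on MOE430B if it was tested there alone. Changes are log2 of differentiated over undifferentiated with limma's SE, and levels of different probe sets are not compared, since probes differ in brightness. In RNA from a mixed culture, fewer cells of a type and less RNA per cell cannot be told apart.

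Translation factor mRNAs changed by small amounts and in both directions. On MOE430A, 97 of 109 member probe sets were tested, and 10 were higher and 12 lower in the differentiated state. Those shares, 10.3% and 12.4%, lie somewhat under the background of 14.1% and 14.4% of all probe sets tested (28.5% in either direction), and no member that passed reached 2-fold, as 10.4% of all probe sets did. The median change of the members was -0.05 against 0.03 for all probe sets, and the median size of a change was 0.27 against 0.36. The states did not overlap for 50 member probe sets (51.5%), with a background of 47.7%. Of the 97 tested, 83 were above background in all 6 samples. By gene, 51 of the 54 were tested, of which 7 were higher (13.7%), 6 lower (11.8%) and 38 did not pass. Over both chips the background was 9.23% and 9.27% of genes. Among the 45 members shown on MOE430A, which hold all the calls, the shares were 15.6% and 13.3%. The background there was 14.2% higher and 13.9% lower. Counted by gene, the shares were thus near the background on MOE430A and above it over both chips, unlike those by probe set. With 1 sample left out, 4 to 9 member probe sets were higher and 3 to 9 lower, the fewest without undifferentiated sample 4 (4 and 3). In those fits 1371 to 1836 of all 15939 probe sets were higher and 1389 to 2000 lower, so calls were lost over the whole chip. Leaving out differentiated samples 1 and 4 leaves 1 differentiated sample, and the member median was then -0.07. Directions are relative to the common trimmed mean. Scaled on the hybridisation controls, the median of all probe sets of MOE430A was -1.06. No member was then higher, beside 247 of all probe sets. Scaled on the poly-A controls 2 members were higher and 0 lower, beside 1232 and 1306 of all probe sets. Of the 13 genes that passed, Eef2 alone passed without differentiated samples 1 and 4, and Eef1a1 and Eef2 alone passed with the poly-A scaling.

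**Figure D1:**
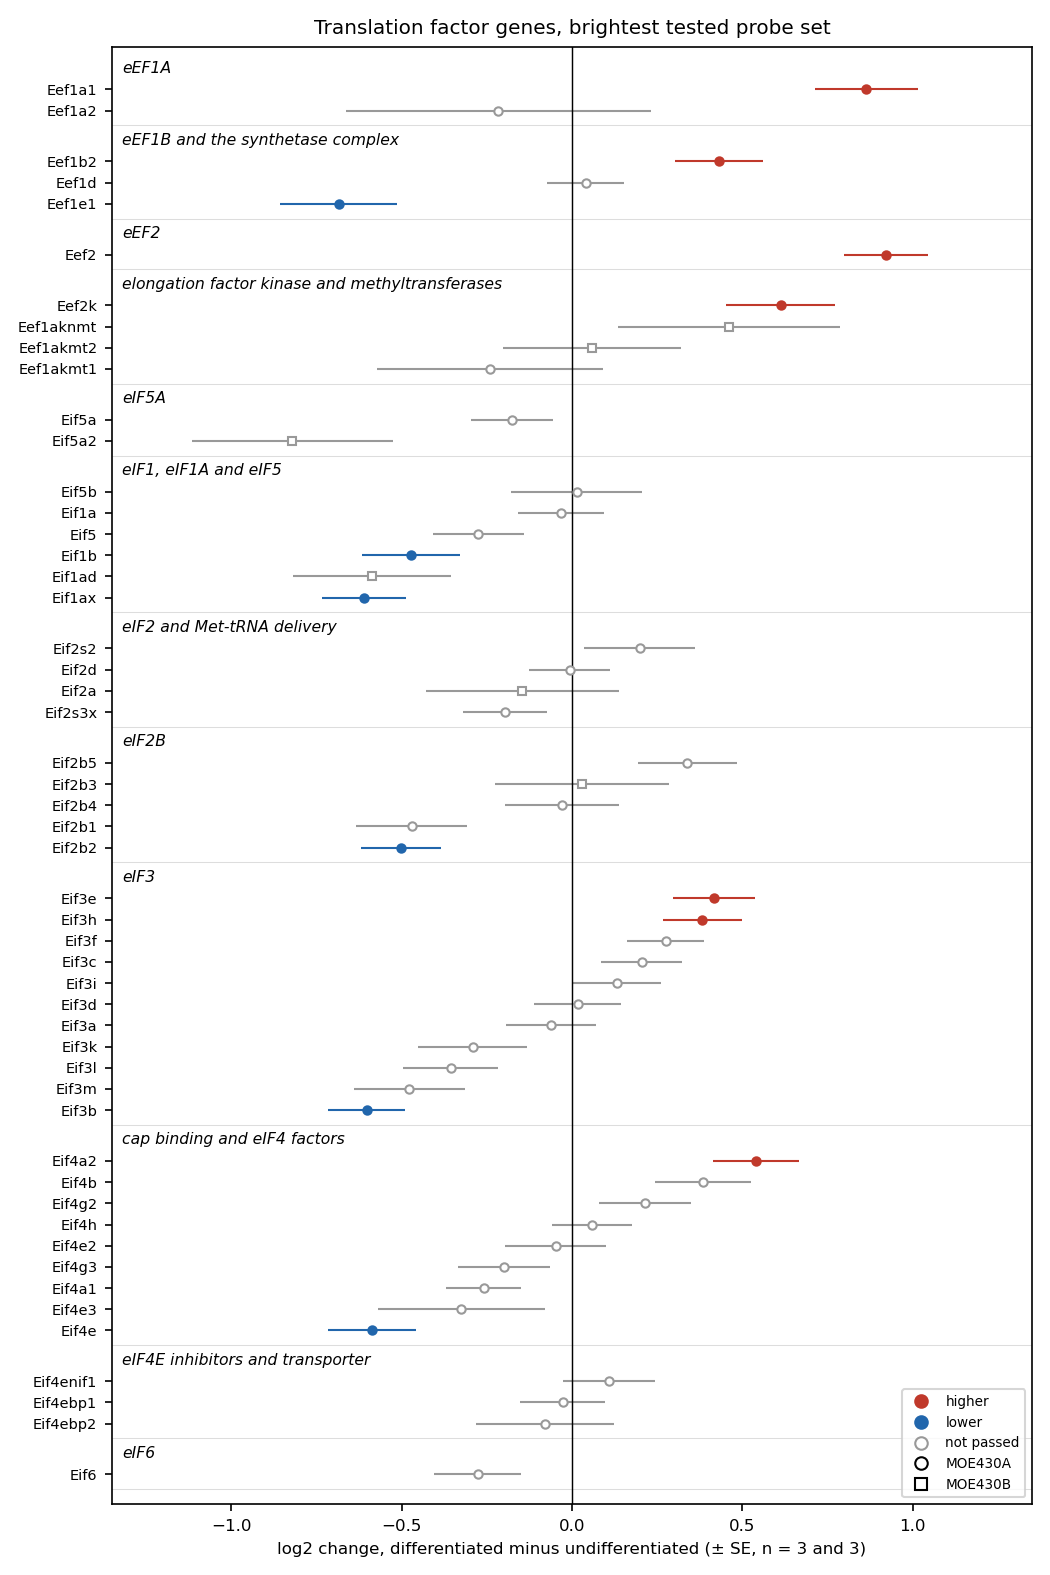
Log2 change (differentiated minus undifferentiated, with SE, 3 samples per state) of the 51 tested translation factor genes, grouped by role. Filled red and blue points are the 7 higher and 6 lower genes, open points did not pass, and squares are the 6 genes shown on MOE430B. All filled points lie between -0.68 and 0.92.

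The main elongation factors had the largest rises. Eef2, the translocase, gave signals of 38290, 41200 and 35910 in the undifferentiated samples and 77100, 68640 and 72850 in the differentiated. Every differentiated sample was well above every undifferentiated one, a change of 0.92 ± 0.12 (SE, limma adjusted p = 0.00219). Eef1a1, the common form of eEF1A, gave 89750, 91710 and 92430, then 187800, 137100 and 178500. The states did not overlap (0.86 ± 0.15, adjusted p = 0.00682), and the 2 highest values were those of differentiated samples 1 and 4. Without those samples Eef2 stayed above the threshold at 0.84 (adjusted p = 0.0353) and Eef1a1 did not, at 0.59 (adjusted p = 0.0687). Both passed when any single sample was left out. Quantile normalization forces all arrays to the same distribution, and under it Eef2 was at 0.41 (adjusted p = 0.0514) and Eef1a1 at -0.10 (adjusted p = 0.568). Eef1a1 ranked 2, 1 and 2 of 22626 probe sets in the undifferentiated arrays and 3, 2 and 3 in the differentiated. Its value is then set by its rank, so that setting could not show a rise of Eef1a1. Scaled on the hybridisation controls Eef1a1 was at -0.32 and Eef2 at -0.27, so neither rise holds under every scaling.

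The other subunits of the elongation machinery did not move as a block. Eef1b2, the exchange subunit that recharges eEF1A, gave 12890, 13510 and 15230 undifferentiated and 18270, 17710 and 20240 differentiated. The states were apart (0.43 ± 0.13, adjusted p = 0.0443), but the call was lost when any one of the 6 samples was left out (adjusted p 0.0667 to 0.127). Eef1d, the delta subunit of the same complex, was level at 5768, 5646 and 5592 against 6184, 5629 and 5694 (0.04 ± 0.11, adjusted p = 0.817). A dimmer Eef1d probe set passed as lower, but all its values were below background. Eef1e1, a scaffold protein of the aminoacyl-tRNA synthetase complex, was lower, at 1970, 2424 and 2299 against 1131, 1662 and 1321. Its change was -0.68 ± 0.17 (adjusted p = 0.0251), the largest fall among the genes shown that passed, and leaving out undifferentiated sample 2 or 4 or differentiated sample 1 or 4 raised the adjusted p to between 0.0562 and 0.0844. The tissue-restricted form Eef1a2, known from muscle and neurons, spread too widely to call in the differentiated state, with 1118, 1263 and 1284 against 2159, 1032 and 485.5 (-0.22 ± 0.45, adjusted p = 0.748).

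Eef2k, the kinase that inhibits eEF2 by phosphorylation, was higher by its MOE430A probe set, as was its substrate. Its signal was 1210, 1013 and 866.2 in the undifferentiated samples and 1448, 1810 and 1561 in the differentiated, with no overlap (0.61 ± 0.16, adjusted p = 0.0296). Leaving out undifferentiated sample 2 or 4, or differentiated sample 2 or 4, raised its adjusted p above the threshold, to between 0.0609 and 0.0962. On MOE430B its other probe sets did not pass. The brighter overlapped between the states (0.25 ± 0.32, adjusted p = 0.766), and the dimmer was at 0.74 ± 0.29 (adjusted p = 0.2955). The enzymes that methylate eEF1A did not pass by their brightest probe sets: Eef1akmt1 was at -0.24 ± 0.33, Eef1akmt2 at 0.06 ± 0.26 and Eef1aknmt at 0.46 ± 0.33. A pair of dimmer Eef1akmt1 probe sets passed as lower (adjusted p = 0.0296 and 0.0279) with every differentiated value below background. The first was at least 1.26-fold lower with those values raised to the background, and for the second no bound could be given. Eef2kmt, which methylates eEF2, was below background in all samples (48.33 to 226) and was not tested.

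The first bases of the elongation factor genes are shown because a pyrimidine tract at the mRNA start is the feature these mRNAs are best known for. The windows run from 5 bases before to 25 bases from the annotated start in RefSeq (GRCm38.p6), 5′ to 3′ on the gene's strand. Capitals mark a tract, here a C followed by at least 5 bases that are all C or T, read on the sense strand alone and searched from 10 bases before to 30 after the start.
Eef1a1, chr9:78481700-78481729, minus strand: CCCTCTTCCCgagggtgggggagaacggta
Eef2, chr10:81176626-81176655, plus strand: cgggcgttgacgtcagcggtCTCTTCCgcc
Eef1b2, chr1:63176826-63176855, plus strand: gttccgccggaagtagccgaggccttgcgt
Eef1e1, chr13:38659004-38659033, minus strand: agctgtgcaggccccgCCTCCCTaggagct

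Eef1a1 had a tract of 10 bases that begins 5 bases before its annotated start, and Eef2 one of 7 bases that begins at position 16, with the start base as 1. Eef1b2, also higher, had none in its window, and Eef1e1, which was lower, had one of 7 bases. Of 40 tested members in the promoter table, 17 (42.5%) had a tract, against 30.7% of all genes in it. By call, 3 of the 5 higher genes, 3 of the 6 lower genes and 11 of the 29 that did not pass (37.9%) had one. Tracts were found among higher and lower genes alike, and no test was made on these counts. The search was chosen after the expression values had been seen. A match is a run of letters near an annotated start, and in this table a gene may have several starts. Tracts that lie wholly before the start were counted too, as in Eif4e.

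eIF5A, a factor that carries the amino acid hypusine and helps both elongation and termination, did not pass. Eif5a gave 38180, 38370 and 36320 against 30420, 35270 and 34350, all 3 differentiated values being below all undifferentiated ones (-0.18 ± 0.12, adjusted p = 0.309). It passed as lower under quantile normalization (-0.54, adjusted p = 0.0246). Its paralogue Eif5a2, read only on MOE430B, had 2696, 1870 and 2112 against 1287, 1543 and 896.7 (-0.82 ± 0.29, adjusted p = 0.263). Of those 6 values only that of undifferentiated sample 1 was above background.

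Of the 6 genes in the eIF1, eIF1A and eIF5 group, 2 were lower (33.3%) and none higher. Among all genes 13.9% were lower on MOE430A and 9.27% over both chips, and 2 calls are too few to read a direction for the group. The median of the 6 was -0.37, against 0.04 for all genes of both chips, with 4 of them not passing. Eif1ax, the X-linked eIF1A gene, gave 4835, 4330 and 4946 undifferentiated and 2957, 3277 and 2926 differentiated, with no overlap (-0.61 ± 0.12, adjusted p = 0.0117). Its call held in each of the 6 fits that left out 1 sample. Eif1b, a paralogue of eIF1, went from 3300, 3582 and 3774 to 2167, 2687 and 2805 (-0.47 ± 0.14, adjusted p = 0.0475). That call was lost whichever sample was left out, with adjusted p from 0.055 to 0.142.

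Their neighbours in the group gave values with no call. Eif5, the GTPase activator of eIF2, had 8986, 8598 and 8062 against 6414, 7980 and 6833, again without overlap (-0.27 ± 0.13, adjusted p = 0.164), and all of its probe sets on both chips pointed down. Eif1a was level (-0.03 ± 0.13). Eif5b, the GTPase of subunit joining, was level by its brightest probe set (0.01 ± 0.19). Eif1ad on MOE430B was at -0.59 ± 0.23 with no overlap (adjusted p = 0.307).

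In the group of eIF2 and initiator tRNA delivery, none of the 4 genes (Eif2s2, Eif2s3x, Eif2a and Eif2d) passed by the probe set shown. Their changes ran from -0.20 to 0.20. Eif2s3x, the X-linked gamma subunit, gave 7949, 9194 and 9214 against 7282, 7927 and 7729 (-0.20 ± 0.12, adjusted p = 0.271), while a second bright probe set of the same gene passed as lower (7182, 7712 and 7553 against 5707, 5457 and 5537, -0.42 ± 0.11, adjusted p = 0.0306). Its Y-linked counterpart Eif2s3y read 2.89 to 8.133 on MOE430A in all 6 samples, far below background, and was not tested. Eif2s2, the beta subunit, was at 0.20 ± 0.16, with 5 of its 6 probe sets above 0 and none past the threshold. Eif2s1, the subunit that the eIF2 kinases phosphorylate, was not analysed here, having no single-gene probe set in the annotation.

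The subunits of eIF2B, the exchange factor that stress inhibits through phosphorylated eIF2, gave 1 call among the 5 genes. That was 20% lower, against 13.9% of genes on MOE430A and 9.27% over both chips. Eif2b2, the beta subunit, gave 3076, 3345 and 3428 undifferentiated and 2237, 2239 and 2406 differentiated. It was lower in each differentiated sample (-0.50 ± 0.12, adjusted p = 0.0195), as were its other probe sets, at -0.48 and -0.34, which did not pass. Leaving out undifferentiated sample 2 or 4, or differentiated sample 2, raised its adjusted p to between 0.0507 and 0.0717. Eif2b5, the catalytic epsilon subunit, had 1625, 1652 and 1425 against 1731, 2034 and 2265, apart but without passing (0.34 ± 0.14, adjusted p = 0.121), and its MOE430B probe set read -0.12 ± 0.23. Eif2b1, the alpha subunit, was at -0.47 ± 0.16 (adjusted p = 0.0698), and Eif2b3 and Eif2b4 lay near 0, at 0.03 and -0.03.

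eIF3, the large scaffold of the initiation complex, had subunits that passed on either side. Of 11 subunits tested, 2 were higher (18.2%, against 14.2% of genes on MOE430A) and 1 lower (9.09%, against 13.9%), and their median was 0.02. Eif3e gave 12810, 12960 and 13490 undifferentiated and 17770, 16160 and 18640 differentiated. All differentiated values were higher (0.42 ± 0.12, adjusted p = 0.0386), yet the call held in 1 of 6 fits with a sample left out, that without differentiated sample 2 (adjusted p 0.0478 to 0.107 over the 6). Its dimmer tested probe sets did not pass, at 0.47 (adjusted p = 0.08465) and -0.04 (adjusted p = 0.866). Eif3h gave 7436, 7390 and 6716 against 9136, 9266 and 9724, likewise apart (0.38 ± 0.12, adjusted p = 0.0473), and its call was lost in all 6 such fits (adjusted p 0.0702 to 0.145).

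Eif3b, a core subunit that binds RNA and other subunits, went the other way. Its signals were 7357, 7187 and 7481 in the undifferentiated samples and 4979, 4826 and 4625 in the differentiated. The values within a state were close together and the states far apart (-0.60 ± 0.11, adjusted p = 0.00849), and the call held in all 6 fits with a sample left out. Eif3m and Eif3l lay lower without passing (-0.48 ± 0.16, adjusted p = 0.0666, and -0.36 ± 0.14, adjusted p = 0.0983), and Eif3f higher (0.27 ± 0.11, adjusted p = 0.110). The remaining subunits shown, Eif3a, Eif3c, Eif3d, Eif3i and Eif3k, ran from -0.29 to 0.20. Eif3c did not pass by its brightest probe set, while another passed as higher (4058, 3430 and 4131 against 6971, 5559 and 6210, 0.68 ± 0.14, adjusted p = 0.014).

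In the cap-binding group, 1 of 9 genes was higher and 1 lower (11.1% each, against 14.2% and 13.9% of genes on MOE430A). Eif4e, which binds the mRNA cap, was lower: 8381, 8518 and 8434 undifferentiated against 5029, 6302 and 5546 differentiated. The undifferentiated samples were almost equal and the differentiated ones all below them (-0.59 ± 0.13, adjusted p = 0.0162). Leaving out any one undifferentiated sample raised its adjusted p just above the threshold (to 0.0503, 0.0557 and 0.0559). Its dimmer probe sets did not pass, one at -0.34 and one, below background throughout, at 0.27. The paralogues Eif4e2 (6845, 6956 and 7103 against 7949, 6650 and 5784, -0.05 ± 0.15) and Eif4e3 (1455, 1394 and 1286 against 1292, 702.6 and 1390, -0.32 ± 0.25) overlapped between the states. Eif4e3 passed as lower with differentiated samples 1 and 4 left out (-0.90, adjusted p = 0.0277), and a second Eif4e2 probe set passed as lower (-0.56 ± 0.12, adjusted p = 0.0163).

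Of the paralogous helicases Eif4a2 passed, at 8445, 9640 and 9534 undifferentiated and 12360, 13560 and 14320 differentiated, the states apart (0.54 ± 0.13, adjusted p = 0.0202). Its call held in 1 of 6 fits with a sample left out, that without differentiated sample 1 (adjusted p 0.0252 to 0.0682 over the 6). Eif4a1 gave 30580, 29300 and 30100 against 25580, 25090 and 24490, with no overlap but without passing (-0.26 ± 0.11, adjusted p = 0.122). A dimmer Eif4a1 probe set passed as lower (15000, 13920 and 16160 against 9709, 10200 and 9272, -0.62 ± 0.12, adjusted p = 0.0104), and all 3 of its probe sets pointed down. The helicase cofactor Eif4b was at 0.38 ± 0.14 by its brightest probe set (8350, 7989 and 7914 against 9874, 9655 and 12400, adjusted p = 0.0799), and its other probe sets passed as higher, at 0.74 (adjusted p = 0.0106) and 0.66 (adjusted p = 0.0197).

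**Figure D2:**
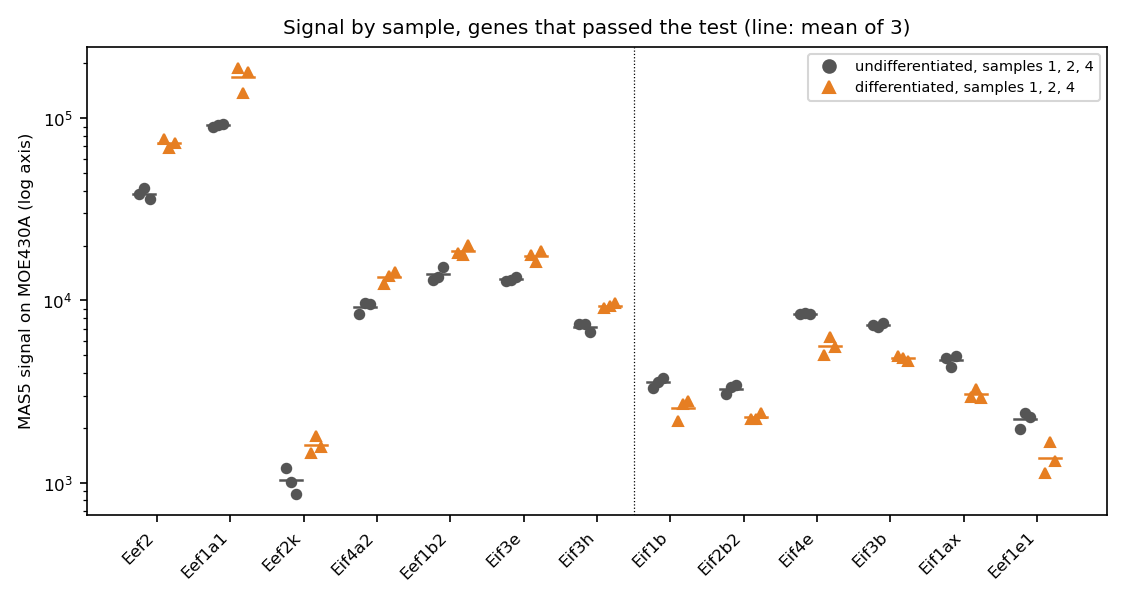
MAS5 signal on MOE430A (log axis) of the 13 genes that passed, in each of the 3 undifferentiated (circles) and 3 differentiated (triangles) samples, with a line at each mean. The 7 higher genes stand left of the dotted line and the 6 lower genes right of it, and in none of the 13 do the states overlap.

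The start regions of the helicase Eif4a2, of the lower genes Eif3b, Eif1ax and Eif2b2, and of Eif3f, which has the longest tract, are given for comparison with those of the elongation factors, in the same windows and with the same capitals.
Eif4a2, chr16:23107463-23107492, plus strand: cccgtaggagcagggcggccgaggagcgcg
Eif3b, chr5:140419300-140419329, plus strand: gcggtgacttctgggagtcggaagcagggc
Eif1ax, chrX:159372173-159372202, plus strand: agggcggggagaagccccgcccgctgccgc
Eif2b2, chr12:85219476-85219505, plus strand: cggaagttgaCCTCTCTCggcccggaagtg
Eif3f, chr7:108934410-108934439, plus strand: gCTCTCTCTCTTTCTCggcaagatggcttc

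Among these windows, a tract was found in the lower gene Eif2b2 (8 bases) and in Eif3f, which did not pass and had the longest of the members, at 15 bases. Eif4a2, Eif3b and Eif1ax had none there, nor did the lower gene Eif1b. At 1 of the annotated starts of Eif4e a tract of 8 bases begins 10 bases before the start and ends before it. Eif3e and Eif3h are named without a sequence.

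The eIF4G scaffolds and the inhibitors of eIF4E did not pass. Eif4g2, an eIF4G relative that lacks the eIF4E site, gave 23220, 25000 and 28650 against 27700, 29620 and 31730, which overlap (0.21 ± 0.13, adjusted p = 0.267). None of its 4 other probe sets passed and 2 of them had the opposite sign. The brightest of the 4 on MOE430A gave 7864, 8198 and 9099 against 5796, 6307 and 7609, without overlap (-0.36 ± 0.15, adjusted p = 0.1115). Eif4g3 gave 4181, 4493 and 3567 against 3539, 3346 and 3716 (-0.20 ± 0.13, adjusted p = 0.304). Eif4g1 was not analysed here. Eif4ebp1, the inhibitor that mTORC1 releases from eIF4E, was level at 6996, 7386 and 7044 against 7439, 7320 and 6306 (-0.03 ± 0.12, adjusted p = 0.884). Eif4ebp2 was spread within each state, at 2889, 2292 and 1770 against 2121, 1881 and 2477 (-0.08 ± 0.20, adjusted p = 0.795). The eIF4E transporter Eif4enif1 was at 0.11 ± 0.14. In this group of inhibitors and transporter the states overlapped for all 3 genes. Eif6, which keeps the ribosomal subunits apart, was at 5591, 6072 and 6527 against 5135, 5264 and 4580 (-0.28 ± 0.13, adjusted p = 0.146), with no overlap.

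Probe sets of the same gene often gave different changes. Of 24 member genes with several tested probe sets on MOE430A, 9 had all of them on the same side of 0 and 15 had them on both sides. Those 15 include genes with a probe set near 0, where the sign says little (Eif3c, -0.02). They also include dim probe sets, such as that of Eif4e at 0.27, which was below background in every sample. In 10 genes at least 1 probe set passed, in none did all pass, and in none did probe sets pass in opposite directions. The distance between the lowest and the highest probe set of a gene had a median of 0.38 and reached 0.94 in Eif4e2, comparable to the changes of the genes that passed. The shown probe set thus decides whether Eif4a1, Eif4b, Eif3c, Eif2s3x, Eif4e2, Eef1d and Eef1akmt1 count among the genes with no call. It equally decides that Eif4e, Eif2b2 and Eif3e count among the genes that passed, since none of their other probe sets did. The same holds for Eef2k, Eef2 and Eif1ax, whose other tested probe sets are on MOE430B. Those of Eef2 and Eif1ax were below background in every sample.

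**Figure D3:**
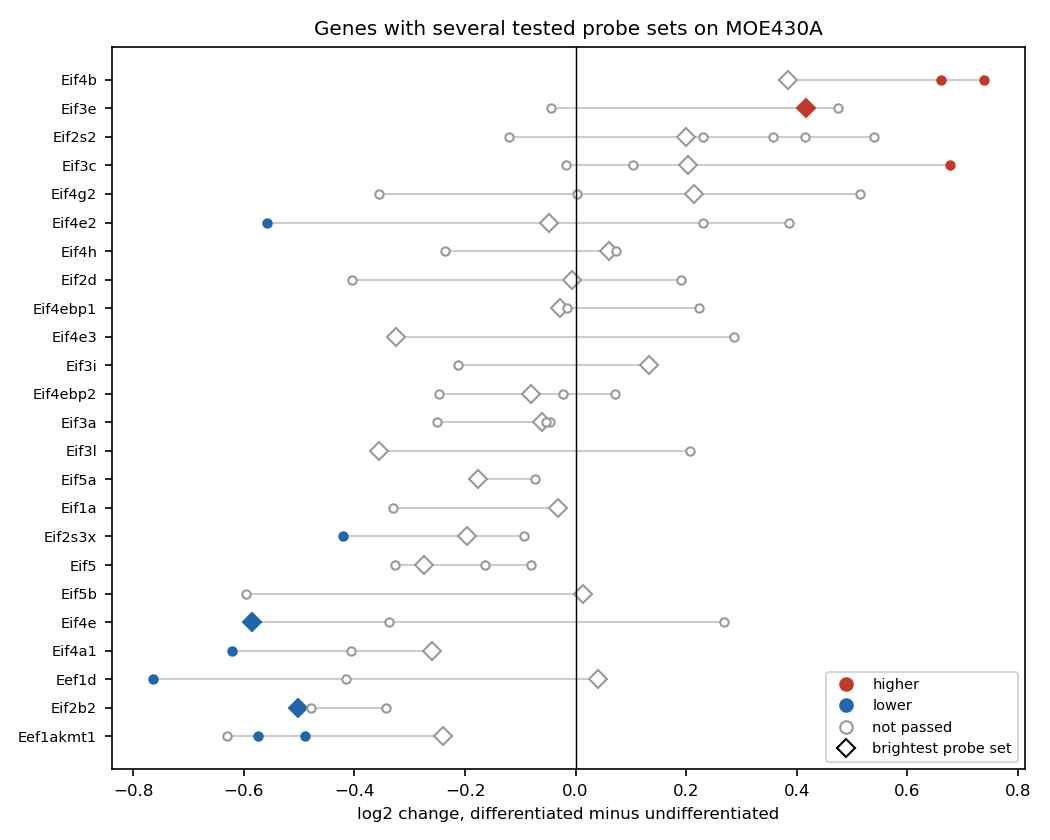
Log2 change (differentiated minus undifferentiated) of every tested MOE430A probe set of the 24 genes with several, 1 row per gene. Diamonds are the brightest probe set, red and blue symbols passed as higher or lower, and 15 rows have symbols on both sides of 0.

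On MOE430B, 29 of 34 member probe sets were tested and none passed limma's test in either direction, beside a background of 0.714% higher and 1.12% lower (1.83% in either direction, all of them at least 2-fold). At an unadjusted p under 0.05 there were 3 (10.3%, background 15.0%), and the states did not overlap for 5 (17.2%, background 22.8%). The member median was -0.03 against 0.04 for all probe sets of the chip. Eif5 has a probe set that is printed on both chips, which read -0.16 ± 0.14 on MOE430A and -0.25 ± 0.23 on MOE430B. Eif4a3, also untested, a helicase of the exon junction complex, read 143.1 to 245.7 on MOE430B by its single-gene probe set, below background in all samples.

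Within an array, the distance between a pair of genes does not depend on scaling by a single factor, apart from the small offset. The pairs given here were chosen for their opposite signs after the values had been seen, so the distances are a description without a test. Eef2 gained 1.10 ± 0.12 (SE) on Eif5a, Eif3e gained 1.02 ± 0.08 on Eif3b, and Eif4a2 gained 0.80 ± 0.11 on Eif4a1. These distances do not say which gene of a pair moved.

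Genes that regulate or complete translation were read from lists of 63 genes, of which 61 were tested: 13 were higher (21.3%) and 6 lower (9.84%). All genes gave 9.23% and 9.27% over both chips, and 14.2% and 13.9% on MOE430A, where 51 of the 61 were shown, and these are the shares to set beside each list that follows. In the list for the response to phosphorylated eIF2, 4 of 9 genes were higher and 1 lower, with a list median of 0.36 against 0.04 for all genes. Trib3, a pseudokinase induced by ATF4, gave 677.9, 678.7 and 642.1 undifferentiated and 4263, 5022 and 3697 differentiated (2.56 ± 0.15, adjusted p = 6.17e-05). Ppp1r15a, which directs a phosphatase to eIF2, was at 1.43 ± 0.19 (adjusted p = 0.00198), the factor Ddit3 at 1.42 ± 0.13 (adjusted p = 0.000427) and Atf4, whose mRNA is favoured when eIF2 is phosphorylated, at 1.13 ± 0.12 (adjusted p = 0.000721). Of the eIF2 kinases, Eif2ak3, the sensor of the endoplasmic reticulum, was lower, at 3229, 3206 and 3297 against 1786, 2488 and 2363 (-0.55 ± 0.15, adjusted p = 0.0356). Eif2ak1, Eif2ak2 and Eif2ak4 did not pass by their brightest probe sets (0.31, 0.36 and 0.05), while another Eif2ak1 probe set passed as higher.

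The kinases that phosphorylate eIF4E moved in opposite directions. Mknk1 gave 1362, 1306 and 900.2 undifferentiated and 2088, 1841 and 2056 differentiated (0.73 ± 0.18, adjusted p = 0.0226). Mknk2 gave 5432, 4660 and 4569 against 2354, 2388 and 2413 (-1.01 ± 0.12, adjusted p = 0.00154). Their distance within an array changed by 1.74 ± 0.15 (SE), again a description of a pair chosen on its values. In the same list of mTORC1 and MNK genes, 3 of 17 were higher and 1 lower: Ddit4, an inhibitor of mTORC1, was at 1.45 ± 0.22 (adjusted p = 0.00354) and Rps6, a ribosomal protein phosphorylated downstream of it, at 0.79 ± 0.14 (adjusted p = 0.00641). Larp1, which binds pyrimidine-tract mRNAs, was at 0.19 ± 0.15 (adjusted p = 0.372).

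Among poly(A) binding proteins and other regulators, 4 of 11 were higher and 2 lower. Pdcd4, an inhibitor of eIF4A, gave 3219, 2986 and 3018 undifferentiated and 647.4, 1045 and 892.9 differentiated (-1.77 ± 0.18, adjusted p = 0.000635), with differentiated sample 1 below background. Fmr1, an RNA-binding repressor, was at 1.23 ± 0.15 (adjusted p = 0.00151), Paip2, which displaces poly(A) binding protein, at 0.56 ± 0.12 (adjusted p = 0.017) and Pabpc4 at 0.48 ± 0.13 (adjusted p = 0.0292). Paip1, which bridges poly(A) binding protein and eIF4A, passed as lower (adjusted p = 0.0393), but all its differentiated values were below background and the background of those arrays was above its undifferentiated values on average, so no fold is given. Pabpc1 itself was level (37660, 39100 and 39140 against 44120, 37520 and 39760, 0.06 ± 0.12).

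In termination and recycling none of 9 genes was higher and 2 were lower: Gspt1, the GTPase eRF3a, at -0.84 ± 0.15 (adjusted p = 0.00709) and Denr, a recycling factor, at -0.57 ± 0.15 (adjusted p = 0.0328). Of the 7 enzymes for hypusine and diphthamide, the modified residues of eIF5A and eEF2, Dph7 was higher (0.63 ± 0.19, adjusted p = 0.0427). None of the 7 was lower by the probe set shown, but another probe set of the hypusine enzyme Dhps passed as lower. Of 8 mitochondrial factors Gfm2, which recycles mitochondrial ribosomes, was higher (0.57 ± 0.14, adjusted p = 0.0252) and none was lower. Further probe sets of Gfm2 and Paip1 pointed the other way without passing. Etf1 of the termination list did not pass by its brightest probe set (-0.28), while another passed as lower.

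**Figure D4:**
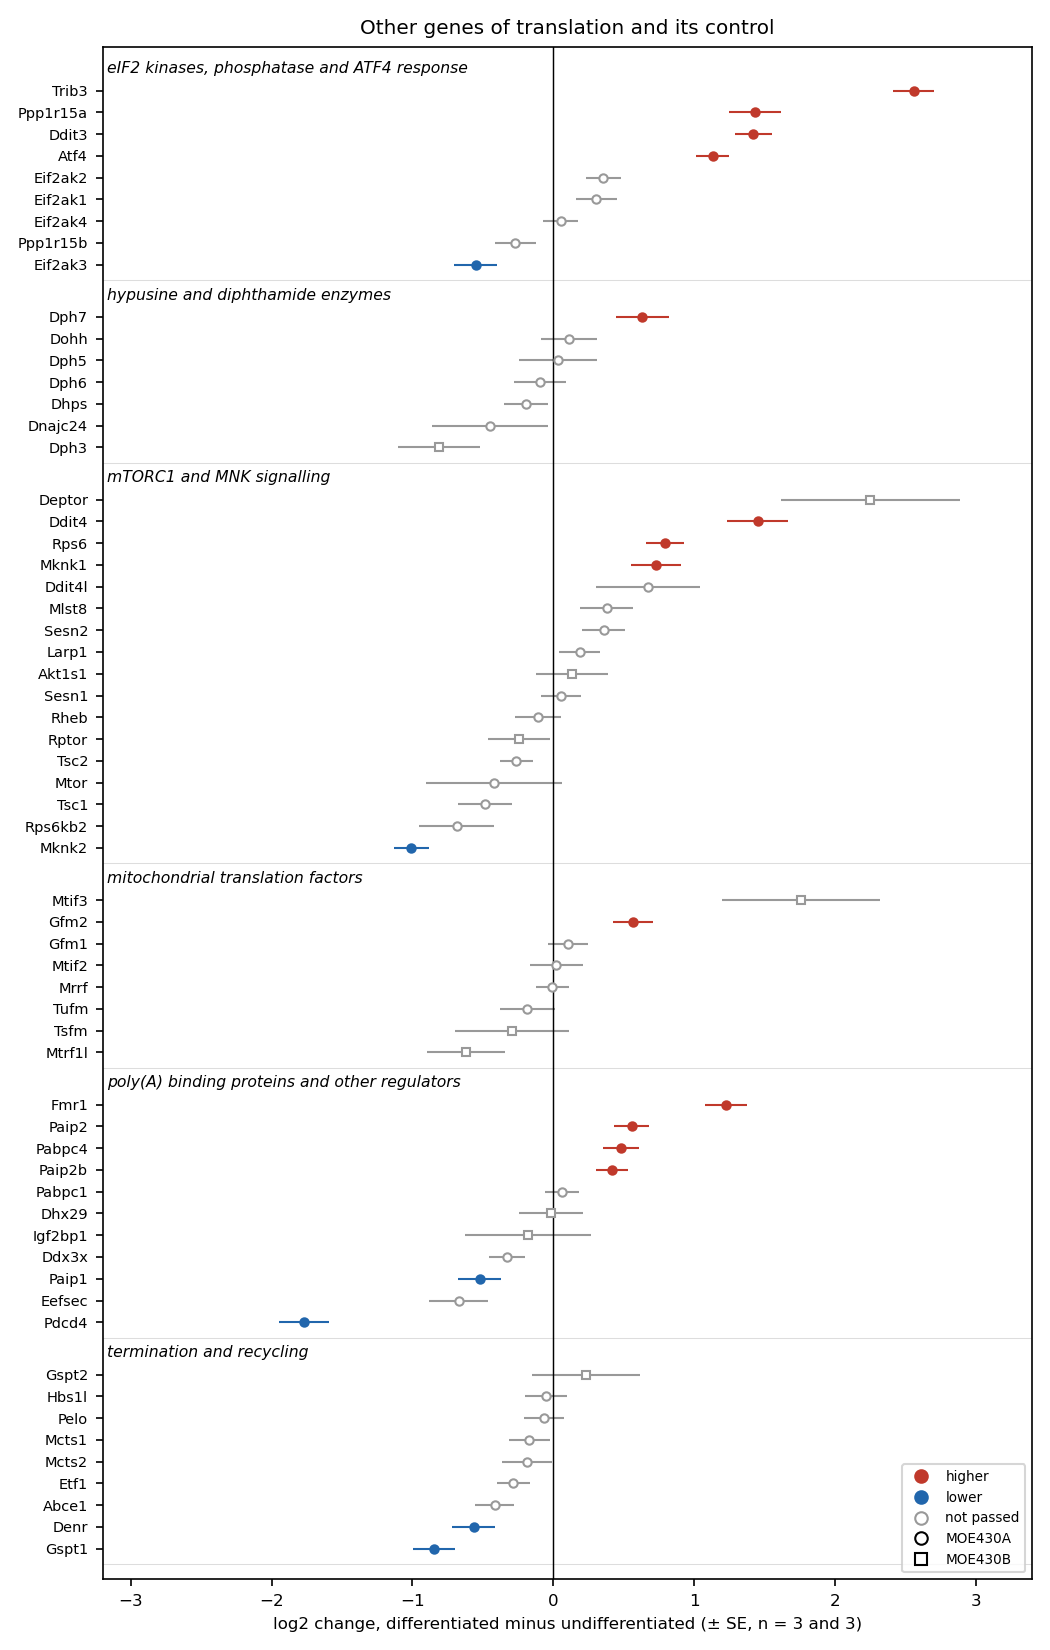
Log2 change (differentiated minus undifferentiated, with SE, 3 samples per state) of 61 other genes of translation and its control, in 6 lists. The 13 higher and 6 lower genes are filled, Trib3 at 2.56 and Pdcd4 at -1.77 lie farthest out among them, and squares are genes shown on MOE430B.

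Markers of other cell types and of division moved with the state beside these results, and their part in them was not tested. All 10 tested genes of dividing cells were lower, and their summed signal was 32430 to 34140 in the undifferentiated samples and 9392 to 11350 in the differentiated. Of the 7 tested myoepithelial markers 3 were higher, with sums of 7439 to 8099 and 61580 to 76510, and 4 of the 7 were below background throughout. Fibroblast markers were higher for 5 of 7 and lower for 1, with sums of 309600 to 320500 and 514300 to 722300. Leukocyte markers were higher for 2 of 6 (sums of 4967 to 6299 and 7246 to 9994), and luminal markers lower for 1 of 6 (7564 to 16540 and 6890 to 13510). Endothelial markers were higher for 1 of 5 and lower for 2 (3306 to 3995 and 3008 to 3968), and the 1 adipocyte marker tested did not pass (328.7 to 466.4 and 375.9 to 702.2).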

How the data were processed

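The authors deposited 1 intensity per probe set and array, on a linear scale, made with MAS5 per the submitters' processing notes. The MAS5 version is not given in the sources here. The authors' deposited instrument records gave the fluidics station and scan session. Probe sets were named through the platforms' probe-to-gene tables and RefSeq (GRCm38.p6), and those with several genes or none were not named. Here arrays were scaled to their common trimmed mean (2% off each end), an offset of 75 was added and log2 taken. Probe sets with a mean signal of at least 300 were tested (15939 on MOE430A, 17915 on MOE430B). R 4.3.3 and limma 3.58.1 (lmFit, eBayes) compared the states on each chip apart, with Benjamini-Hochberg adjustment over the chip, checked on simulated data. All adjusted p-values are limma's. A state whose 3 values lay below the trpn background was raised to it, giving a bound where the other state lay above; this background was chosen after the values had been seen. Members with values in every sample were those that passed without overlap, and a set list of factors; of each related list, the 3 largest rises and falls were named. The members and lists were chosen with earlier results of these data known. The number of arrays limits the precision.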

Additional observations from a re-analysis of the deposited data

How the results depend on the processing

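Over all 15939 probe sets tested on MOE430A, 2252 were higher and 2298 lower. Those counts were 247 and 10649 with the hybridisation controls, 1232 and 1306 with the poly-A controls, and 2527 and 2641 with a trend and robust prior. With 1 sample left out they were 1371 to 1836 and 1389 to 2000. Member counts on MOE430A, 10 higher and 12 lower, likewise depended on the samples and the scaling. Scaled on the hybridisation controls, which moves the median of all probe sets to -1.06 on MOE430A and -0.91 on MOE430B, 0 were higher and 75 lower, the member medians were -1.20 and -1.04, 1 member of MOE430B was lower, and changes of the opposite sign were read for Eef1a1 (-0.32), Eef1b2 (-0.75), Eef2 (-0.27), Eef2k (-0.50), Eif3e (-0.77), Eif3h (-0.79), Eif4a2 (-0.64) and Eif4g2 (-0.97), each of which lay above the shifted median. Scaled on the poly-A controls, 2 members were higher (Eef1a1 and Eef2), 0 lower, and the MOE430B median was 0.11. With quantile normalization Eef1a1 read -0.10, a value largely fixed by its top rank in every array, and the MOE430B median was -0.0053. With no filter 6 members were higher, beside 1839 of all 22626 probe sets. With the scan session as a block 5 members were higher, beside 1606 of all probe sets. Undifferentiated sample 1 alone was scanned in the second session, so this block gave the same values as leaving that sample out. Leaving out differentiated samples 1 and 4 leaves 1 differentiated sample, and the member median on MOE430A was then -0.07. Leaving out 1 sample gave 4 to 9 higher and 3 to 9 lower, and MOE430B medians of -0.089 to 0.021. Of the related probe sets (18 higher, 10 lower), hybridisation controls gave 2 and 49, poly-A controls 9 and 5, the session block 11 and 5, leaving out 1 sample 9 to 16 and 5 to 9, no filter 6 lower, and leaving out both doubtful samples 6 lower. The sample number as a replicate block gave 5 members higher and 7 lower, beside 1745 and 1818 of all probe sets. After each probe set's mean within a state was taken off, the remaining deviations of same-numbered samples correlated at -0.02 to 0.05. With 3 samples per state such values cannot decide whether the numbers pair the samples. On MOE430A differentiated sample 1 correlated best with its own number and samples 2 and 4 did not. On MOE430B samples 1 and 4 did and sample 2 did not. A trend and robust prior gave 14 higher and 18 lower. The cause of these shifts was not tested. Dim probe sets near the trpn background limit what could be called, above all on MOE430B.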
